A study of Sparus aurata with 9 samples.

Results

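The set described here holds 190 transcript sequences of gilthead sea bream (Sparus aurata) liver whose level was lower in all 3 pools of fish kept with 50 µg/L gold nanoparticles (AuNP) than in each of the 6 other pools, and by at least 0.5 on the log2 scale between the 50 µg/L mean and the mean of those 6. They were chosen by these measured values from 5191 sequences that could be measured in at least 1 group, out of 15156 on the array. How far each sequence stood below the other pools at 50 µg/L is therefore a description and carries no test. A level is the log2 of the scanner's processed signal minus the log2 of that array's 75th percentile, averaged over the probes of a sequence that were well above background on every array of at least 1 group. Levels are compared between pools for 1 sequence at a time, and never between sequences as amounts of RNA.

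The fish were juveniles of 50 g, spread at random over tanks set up in duplicate, and were held for 24 h in artificial saltwater without AuNP (control), with AuNP at 0.5 µg/L, or with AuNP at 50 µg/L. AuNP was the agent added at both concentrations, and all groups shared the water, the acclimation and the feeding before it. Liver RNA of 3 fish was combined into each pool, with 3 pools per group, so n = 3 and the values of single fish are not seen. Tank and treatment cannot be told apart here, and the p-values measure only the spread between pools. In bulk liver RNA, fewer cells of a type and less RNA per cell cannot be told apart.

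The liver of a teleost takes up particles and foreign compounds from the blood, makes most plasma proteins and stores lipid and glycogen, and its transcript levels are commonly used to follow exposure to contaminants. Gold nanoparticles are colloidal metal particles used in imaging, sensing and drug delivery, and reach water as an engineered contaminant. The array probes were designed on assembled contigs and single cDNA clones of sea bream. Of 43949 sequence and probe names in the files, 0 were found among the RefSeq genes of assembly fSpaAur1.1, so no gene name could be paired with the sequences. These names are labels of contigs, clones and probes, and the lack of a match says nothing about the genes behind them. The functions of the sequences, the markers of liver and of other cell types, and pathway lists could not be read, and the probe letters were not used here. At most 2 identifiers are given per direction in a comparison, and other sequences are called by their rank, with rank 1 for the largest difference between 50 µg/L and the other 6 pools.

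Per array, the signal of 7473 to 13557 of the 28793 probes stood well above background, and 0 spots were saturated. The added spike-in RNA gave a further reference for each array. On the log2 scale, the 75th percentile lay below the mean of 6 spike-ins, by a difference of -4.80, -5.54 and -5.63 in control pools 1, 2 and 3, -5.65, -5.34 and -5.38 at 0.5 µg/L, while those at 50 µg/L were -4.84, -4.95 and -4.78. Control pool 1 thus lay among the 50 µg/L pools on this measure. Its part in the differences below is given as values where they bear on it. Every slide held 1 array of each group at a fixed position, so a group cannot be told apart from its position.

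The 190 sequences had log2 differences between 50 µg/L and the other 6 pools from -1.46 to -0.50, with a median of -0.65, beside -0.11 over all 5191 sequences. For the 170 sequences with a kept probe well above background on at least 1 array at 50 µg/L, the level there was 1.41 to 2.56 times lower, with a median of 1.55. For the other 20, signals at 50 µg/L were not well above background, and their folds are given apart below. The distance between the highest 50 µg/L pool and the lowest of the other 6 pools was small for many of the 190. It had a median of 0.15, was under 0.1 for 71 sequences and reached 0.5 or more for 3. The SD between pools of a group, pooled over groups, had a median of 0.25 in the set and 0.29 over all sequences tested. The rule favours a small spread, since it keeps only sequences whose 50 µg/L pools do not overlap with the others.

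**Figure D1:**
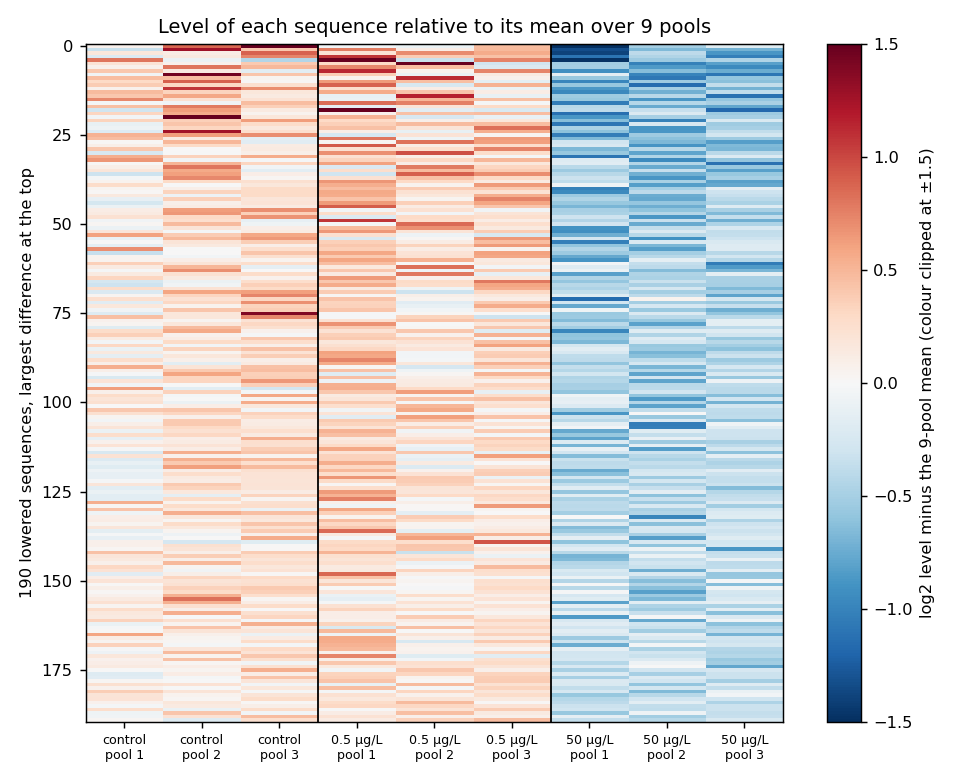
Log2 level of each of the 190 sequences (rows, largest difference at the top) relative to its mean over 9 pools, in 3 control pools, 3 pools at 0.5 µg/L and 3 pools at 50 µg/L (columns). The 50 µg/L columns are mostly blue, since the rule puts these pools below the other 6, and control pool 1 is the palest of those 6.

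The largest difference was that of the clone cDN03P0004C17.F.ab1. Its log2 levels were -0.36, 0.45 and 1.22 in control pools, -0.46, -0.51 and 0.06 at 0.5 µg/L, with -2.64, -0.93 and -0.61 at 50 µg/L. The 50 µg/L values lay below all others, but pool 1 stood far below the other two, and the SD at 50 µg/L was 1.09. No array at 50 µg/L measured it well above background. Its measured level there was 3.56-fold lower than in controls, a value that rests on these dim signals. Of its 3 probes 1 was kept, and the other two, which were too dim to be kept, had differences of -0.81 and 0.25.

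The clone cDN06P0002K22.F.ab1, with 1 probe on the array, was well above background on all 9 arrays. It had log2 levels of 1.63, 3.23 and 2.37 in control pools, 2.73, 2.07 and 2.45 at 0.5 µg/L, while those at 50 µg/L were 0.63, 1.29 and 1.25. The mean was 2.41 ± 0.80 in control pools, 2.42 ± 0.33 at 0.5 µg/L and only 1.06 ± 0.37 at 50 µg/L (SD, n = 3 each), a 2.56-fold lower level at 50 µg/L than in the other 6 pools. Control pool 1 was the lowest of these 6 and lay 0.33 above the highest pool at 50 µg/L.

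The widest separation of the set belonged to the contig at rank 10, which was measured well above background on all 9 arrays by 3 probes. Its log2 levels were 3.76, 3.76 and 3.34 in control pools, 3.35, 4.42 and 3.36 at 0.5 µg/L, while those at 50 µg/L were 2.73, 2.22 and 2.72. The highest 50 µg/L pool lay 0.61 below the lowest of the others. The 3 probes had differences of -1.17, -1.06 and -1.09, and on each of them all 50 µg/L pools lay below all other pools.

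Of the 12 largest differences, 10 belonged to clones and 8 rested on 1 kept probe, and 5 sequences had every kept probe well above background on all 9 arrays. Their separations ran from 0.0066 to 0.61. The smallest was that of the clone at rank 5, whose 3 values at 50 µg/L, -0.07, 0.86 and 0.96, ended just under the 0.96 of control pool 3, while 0.5 µg/L pool 1 reached 3.18. For 8 of the 12 the mean at 0.5 µg/L was above that of controls.

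**Figure D2:**
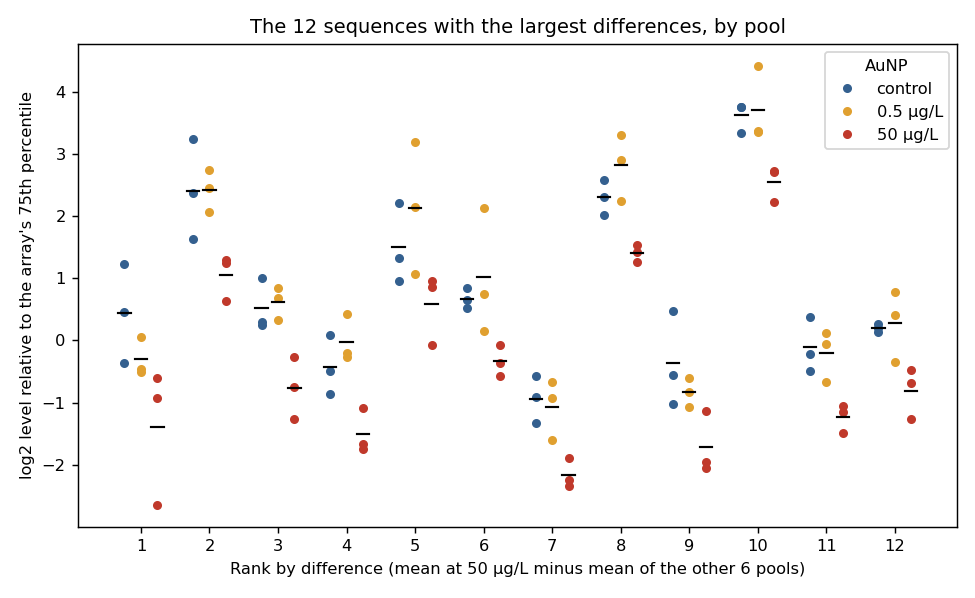
Log2 level relative to the array's 75th percentile (vertical axis) of the 12 sequences with the largest differences, by rank (horizontal axis), with 1 point per pool and a bar at the mean of 3 pools per group. The 0.5 µg/L and control points overlap for all 12, and the 50 µg/L points lie below both, closely so at rank 5.

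Brightly measured sequences were part of the set as well. In the other 6 pools, 18 of the 190 had a mean level of 4 or more, which is 4.47% of the 403 tested sequences at that level, and their differences ran from -0.90 to -0.51. The brightest, a contig at rank 95, had log2 levels of 8.15, 8.26 and 8.59 in control pools, 7.86, 8.06 and 8.004 at 0.5 µg/L, while those at 50 µg/L were 7.51, 7.15 and 7.86. Its means went down with each step in concentration, and the highest 50 µg/L pool came within 0.0049 of the lowest pool at 0.5 µg/L. All 3 of its probes showed the difference, at -0.66, -0.65 and -0.64, but on the probe at -0.65 the 50 µg/L pools overlapped with the others. The clone at rank 28 had the largest difference among these 18. Its levels were 5.85, 6.33 and 5.66 in control pools, 5.86, 6.64 and 6.45 at 0.5 µg/L, while those at 50 µg/L were 5.53, 5.16 and 5.01, with differences of -0.92, -0.93 and -0.84 over 3 probes.

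Among the sequences with 3 or more kept probes, the 6 with the smallest spread between pools had differences from -0.81 to -0.51. The contig at rank 186, with 3 kept probes, had the smallest pooled SD of the set, 0.063. Its log2 levels were 5.21, 5.38 and 5.33 in control pools, 5.56, 5.56 and 5.45 at 0.5 µg/L, while those at 50 µg/L were 4.92, 4.88 and 4.93. All 3 groups were apart from each other here, with 0.5 µg/L the highest. A contig at rank 184 differed less between the first pair of groups on the mean of its 3 probes. Its levels were 0.98, 0.81 and 1.05 in control pools and 0.93, 0.97 and 0.92 at 0.5 µg/L, while those at 50 µg/L were 0.34, 0.48 and 0.47. The single probes differed by 0.09, -0.41 and 0.30 between 0.5 µg/L and control, so this mean joins opposite signs. On the probe at -0.41 the 50 µg/L pools overlapped with the others.

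The set was not made up of dim sequences alone, yet many of its members were near the limit of detection at 50 µg/L. The mean level in the other 6 pools had a median of 0.62 in the set and 0.68 over all sequences tested, and 92 of the 190 lay above that of all sequences. Every kept probe was well above background on all 9 arrays for 103 sequences (54.2%), beside 62.1% of all sequences tested. For 66 sequences no kept probe was well above background on all 3 arrays at 50 µg/L, so they passed the filter through another group. The same count over all sequences is not given. For 20 of the 66, no array at 50 µg/L had any kept probe well above background, beside 138 of all 5191 sequences tested. A rule that asks for low values at 50 µg/L favours such sequences. All 3 control arrays measured each of the 20, which the filter partly fixes, since they could enter only through control or 0.5 µg/L arrays. Their measured levels were 1.46-fold to 3.56-fold lower at 50 µg/L than in controls, values that rest on dim signals and set no lower limit. At 0.5 µg/L, 11 of the 20 were measured well above background on 1 array only, so no fold is given against that group. The median difference was -0.63 for the 103 sequences measured throughout and -0.67 for the other 87. Of the 338 kept probes of the set, 100%, 99.1% and 100% were well above background in control pools 1, 2 and 3. All kept probes stood at 99.8%, 97.4% and 98.6% there. At 0.5 µg/L the shares were 100%, 95.3% and 79.6%, beside 97.6%, 93.7% and 78.8% of all kept probes. Those at 50 µg/L were 75.1%, 84.9% and 69.2%, where all kept probes stood at 90.8%, 94.7% and 86.6%.

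**Figure D3:**
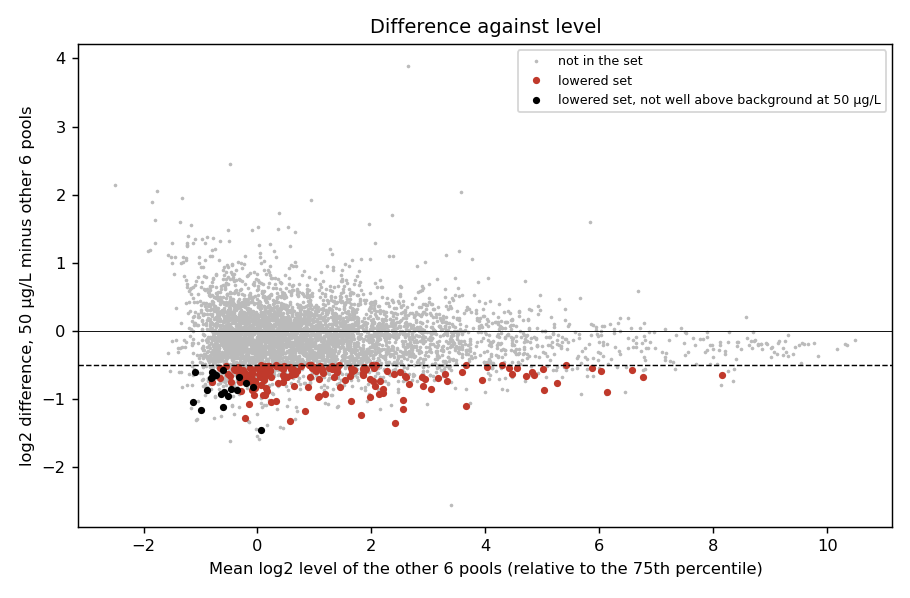
Log2 difference between 50 µg/L and the other 6 pools (vertical axis) against the mean level of those 6 (horizontal axis) for all 5191 sequences, with the set in red and, in black, its 20 sequences not well above background at 50 µg/L. The set covers levels from -1.13 to 8.16, and grey points below the dashed line at -0.5 are the 526 sequences of that size whose pools overlap.

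For the 103 sequences with 1 kept probe, that probe meets the rule by definition. The other 87 sequences had 235 kept probes, and for 162 of these the 50 µg/L pools did not overlap with the others. On 34 of the 87 sequences no probe overlapped, and on 57 every probe was at -0.5 or below. The range between probes of 1 sequence had a median of 0.15 and reached 1.09. For 108 of the kept probes the array held a pair of spots, and both spots were lower at 50 µg/L for 108 of these, with a median SD between spots of 0.10. The same counts over all sequences tested are not given. Since the rule averages these probes and spots, the counts are a description and support nothing about the set.

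The set held 120 clones and 70 contigs. This is 5.15% of the 2330 clones and 2.45% of the 2861 contigs tested. Clones of the 14 series whose names start with cDN had shares from 2.36% (3 of 127, series cDN03) to 8.23% (13 of 158, series cDN14). A contig joins several reads and a clone is a single read, and several of these identifiers can stand for 1 gene, so the 190 sequences are not 190 independent genes. With 1 kept probe, 3.58% of sequences belonged to the set, and 3.76% with more than 1.

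The rule did not set 0.5 µg/L against controls, and that comparison asks how these groups stood to each other. It is not free of the choice, since the rule kept every one of these 6 pools above the 50 µg/L pools, and a sequence as low at 0.5 as at 50 µg/L could not enter. The shares of the set below are partly fixed by this and are given as a description. One limma fit over all 9 arrays and 5191 sequences, adjusted over all of them by Benjamini-Hochberg, called 0 of the 190 at an adjusted p under 0.05, beside 0% of all sequences tested. The smallest adjusted p of the set was 0.735. At an unadjusted p under 0.05, 7 of the 190 were higher at 0.5 µg/L (3.68%, beside 2.31% of all sequences) and 3 were lower (1.58%, beside 3.33%). The log2 difference had a median of 0.08 in the set, from -0.74 to 0.69, and of -0.02 over all sequences tested. The median of the set turned to -0.052 with spike-in scaling and to -0.0026 with normexp background correction, so its direction rests on the processing. Spike-in scaling moves all sequences alike, so under it the distance of the set from all sequences stays the same. With the 75th percentile, the difference was positive for 120 of the 190 (63.2%), beside 47.1% of all sequences. On slides 1, 2 and 3, each with 1 pool per group, the median of the set was 0.22, -0.06 and 0.02. Over all sequences it was -0.0045, -0.013 and -0.027. In the set, 137, 87 and 100 sequences were positive, so the lean toward higher levels at 0.5 µg/L was widest on slide 1 and turned on slide 2. Slide 1 held control pool 1 and 0.5 µg/L pool 1, where the set had median deviations from its 9-pool mean of 0.07 and 0.32.

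All 3 pools at 0.5 µg/L lay above all 3 controls for 18 of the 190 (9.47%, beside 5.59% of all sequences). They lay below all controls for 8 (4.21%, beside 6.74%). The brightest contig was among these 8. Their share was below that of all sequences, and limma called none of them at 0.5 µg/L. At 0.5 µg/L, the contig Seabream_2006-01-03-CL1348Contig1 had log2 levels of 0.56, 0.84 and 0.14, against -0.37, -0.13 and -0.04 in control pools, a difference of 0.69 ± 0.22 (SE; limma adjusted p = 0.735). The clone cDN01P0004D02.F.ab1 had 2.42, 2.15 and 2.37 at 0.5 µg/L, against 1.53, 1.87 and 1.99 in control pools, a difference of 0.52 ± 0.18 (SE) at the same adjusted p. In both, the groups did not overlap, and control pool 1 was the lowest control.

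In the other direction, the contig Seabream_2006-01-03-CL4936Contig1 had log2 levels of -0.48, -0.79 and -0.97 at 0.5 µg/L, against -0.12, -0.34 and -0.14 in control pools. The clone cDN05P0004G20.F.ab1 had -1.20, -0.74 and -0.90 at 0.5 µg/L, against -0.43, -0.31 and -0.25 in control pools. Their differences were -0.55 ± 0.19 and -0.62 ± 0.22 (SE), also at a limma adjusted p of 0.735, and 2 of 3 arrays measured each well above background at 0.5 µg/L. The measured values at 50 µg/L were lower still, at -1.46, -1.14 and -1.07 for the contig and at -1.99, -1.47 and -1.22 for the clone. At that concentration 1 of 3 arrays measured the contig well above background and 0 of 3 the clone, so these values rest on dim signals. For the clone, the highest 50 µg/L pool lay only 0.025 below the lowest pool at 0.5 µg/L. These 4 sequences had the smallest p in each direction, though not all had the largest differences. The lowest difference of the set, -0.74, was that of the clone at rank 1. The quartiles of the set were -0.08 and 0.21, and 11 of the 190 differed by more than 0.5 in either direction.

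**Figure D4:**
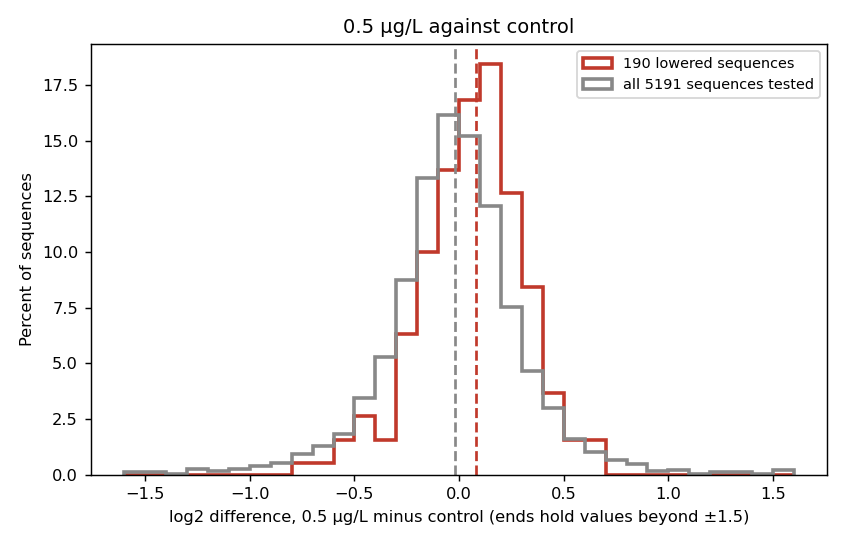
Percent of sequences (vertical axis) by log2 difference between 0.5 µg/L and control (horizontal axis) for the 190 sequences and for all 5191 tested, with dashed lines at the medians of 0.08 and -0.02. The set overlaps the whole array widely and, with this scaling, sits slightly to its right.

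The same fit also compares 50 µg/L with each other group, but both contrasts were used to choose the set, so the counts below are given as descriptions only. Between 50 and 0.5 µg/L, limma called 8 of the 190 as lower, and these were all of the lower calls on the array (0.154% of sequences). At an unadjusted p under 0.05 there were 173 (91.1%, beside 12.1% of all sequences). Against the same controls that served for the comparison at 0.5 µg/L, limma called 0 of the 190 at 50 µg/L, beside 0% of all sequences called as lower, with a smallest adjusted p of 0.204. At an unadjusted p under 0.05, 166 were lower (87.4%, beside 8.88% of all sequences). The median log2 difference of the set was -0.67 against 0.5 µg/L and -0.63 against controls, beside -0.11 in both over all sequences tested.

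The 8 called sequences fell by 0.95 to 1.48 on the log2 scale between 50 and 0.5 µg/L, with adjusted p from 0.0301 to 0.0499, close to the threshold. All 8 had a higher mean at 0.5 µg/L than in controls, by 0.04 to 0.69, beside 63.2% of the set. The contrast between the exposed groups was thus wider than that against controls. Being called in this contrast favours a high mean at 0.5 µg/L, so this is a description only. The clone cDN03P0002D18.F.ab1 had log2 levels of -0.86, -0.50 and 0.09 in control pools, 0.43, -0.27 and -0.21 at 0.5 µg/L, while those at 50 µg/L were -1.74, -1.09 and -1.67. It fell by 1.48 ± 0.30 (SE; adjusted p = 0.0499) at 50 against 0.5 µg/L, and at 50 µg/L 1 of its 3 probes was well above background, on 1 of 3 arrays. Another clone, cDN01P0004I17.F.ab1, had 2.59, 2.31 and 2.02 in control pools, 3.30, 2.24 and 2.91 at 0.5 µg/L, while those at 50 µg/L were 1.26, 1.54 and 1.43. The highest pool at 50 µg/L lay 0.48 below the lowest of the other 6, and against 0.5 µg/L it fell by 1.41 ± 0.27 (SE; adjusted p = 0.0482).

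The contig at rank 14, another of the 8, was the only one of them whose means nearly coincided between these groups, at 1.66 ± 0.23 for 0.5 µg/L and 1.62 ± 0.15 for controls (SD, n = 3 each). It had levels of 1.77, 1.63 and 1.47 in control pools, 1.86, 1.71 and 1.40 at 0.5 µg/L, while those at 50 µg/L were 0.33, 0.57 and 0.92, with 3 probes at -1.002, -0.99 and -1.10 relative to the other 6 pools. With the slide as a fixed block, the limma adjusted p of the 8 ran from 0.0823 to 0.112 and 0 were called. With slides as random blocks, some sequences of the set were still called. Without any single one of the 9 pools, 0 to 3 sequences of the set were called. Calls over all sequences also changed under these settings and are given with the other alternatives at the end, so these counts are a description only.

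Control pool 1 stood nearest to the 50 µg/L pools. It was the lowest of the other 6 pools for 62 of the 190 sequences, beside 17 to 39 for each of the others, and the highest for 10, beside 27 to 58. The median deviation of the set from its 9-pool mean was 0.07, 0.20 and 0.24 in control pools 1, 2 and 3. It was 0.32, 0.15 and 0.24 at 0.5 µg/L, while those at 50 µg/L were -0.43, -0.44 and -0.39. Over all sequences tested it was 0.01, 0.04 and 0.07 in control pools and 0.003, 0.03 and 0.07 at 0.5 µg/L. At 50 µg/L it was -0.02, -0.16 and 0.02, so pool 2 was low over the whole array as well. Control pool 1 had the highest ratio to the spike-ins among the 6. The part of that ratio in the differences was not tested. Without control pool 1, the rule, which then asks for 5 other pools, found 327 sequences, 183 of the 190 among them.

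Which sequences the rule selects depended on how the arrays were put on 1 scale. Relative to the 75th percentile, the whole array had a median difference of -0.11 between 50 µg/L and the other 6 pools. It was -0.07 with quantile normalization, 0.02 with each array centred on its median and 0.41 with scaling to the spike-ins. The rule found 141, 47 and 2 sequences under these scalings, and 138, 47 and 2 of the 190 were among them. The median of the 190 minus that of the array was -0.53 with the 75th percentile, -0.55 with quantile normalization, and -0.53 with the median or the spike-ins, since a scaling by 1 factor per array moves all sequences alike. With normexp background correction, which treats dim spots differently, it was -0.33 and the rule found 27 sequences, 16 of the 190 among them. Counted by sign, 190 of the 190 differences were negative with the 75th percentile, as the rule fixes, and with quantile or median scaling. With the spike-ins 165 were negative. The log2 ratio of the 75th percentile to the spike-ins was 0.53 higher at 50 µg/L than in the other 6 pools. The set was chosen as lower relative to the 75th percentile of its array. Its distance from the array under these scalings restates that choice and supports nothing further. Relative to the added RNA, its median difference was -0.12, beside 0.41 over all sequences tested.

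**Figure D5:**
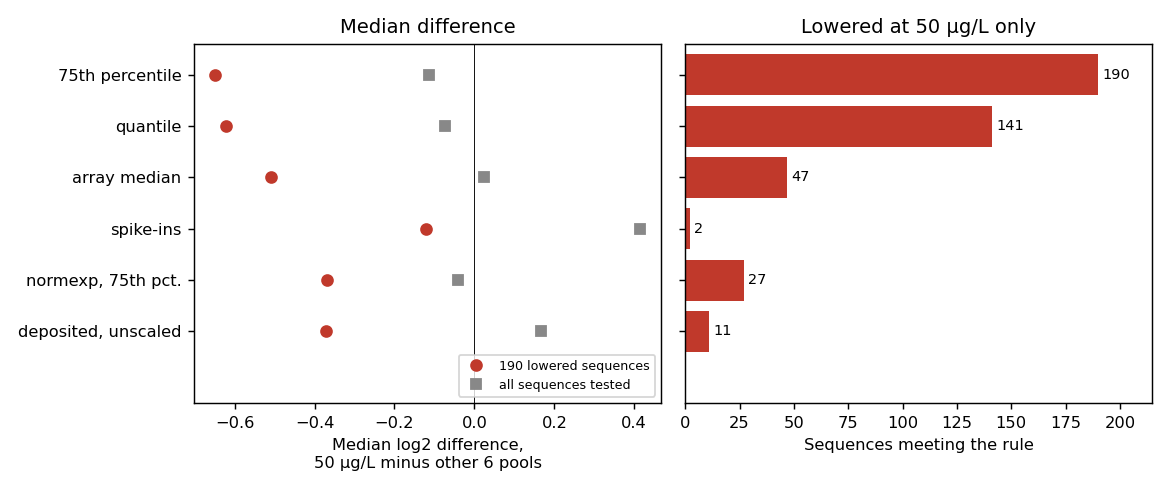
Left, the median log2 difference between 50 µg/L and the other 6 pools of the 190 sequences (circles) and of all sequences tested (squares) under 6 ways of scaling the arrays. Right, the number of sequences that meet the rule under each, from 190 with the 75th percentile to 2 with the spike-ins.

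Around the threshold the values were continuous. The 3 sequences just inside it had differences of -0.5005, -0.5006 and -0.5027, and the 3 just outside, with pools in the same order, had -0.4998, -0.4984 and -0.4970. Without a size threshold, all 50 µg/L pools lay below the other 6 for 300 sequences (5.78% of those tested), and above them for 233. Under the rule turned the other way, 154 sequences were raised at 50 µg/L only. Applied to the 0.5 µg/L pools, it found 88 lowered and 82 raised sequences, and applied to the controls 10 lowered and 36 raised.

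The sequences outside the set whose pattern over 9 pools was most like the mean profile of the 190 had Pearson correlations of 0.96, 0.94 and 0.93 with it, given as a description of pools that were used for the choice. All 3 met the order of the rule and missed its size, with differences of -0.42, -0.46 and -0.46. The first, a clone with 1 kept probe, had log2 levels of 2.09, 2.24 and 2.21 in control pools, 2.38, 2.25 and 2.25 at 0.5 µg/L, while those at 50 µg/L were 1.70, 1.89 and 1.86.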

How the data were processed

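Liver RNA of 9 pools was measured on 1-colour (Cy3) Agilent arrays. The authors deposited scanner files with spot intensity, read with Agilent Feature Extraction 10.7.3.1 per the file headers. The authors' deposited value table holds log2 values equal to the log2 of the background-subtracted signal in the scanner files, with no scaling between arrays and a blank where that signal was 0 or less. Its column medians were 7.00, 6.58 and 6.55 for control pools. The medians were 7.01, 6.69 and 7.04 for 0.5 µg/L, with 7.33, 7.16 and 6.97 for 50 µg/L.

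Here, log2 processed signals of spots that are not controls were set against the 75th percentile of their array. Outlier-flagged spots were dropped unless a probe had no other, and spots were averaged per probe. A probe was well above background where at least 0.5 of its spots were, and 9280 probes passed on all 3 arrays of at least 1 group. Their means per sequence were tested with limma 3.58.1 (R 4.3.3; lmFit, eBayes) in 1 fit of 3 groups, adjusted by Benjamini-Hochberg and called under 0.05. For sequences not well above background, each such signal was replaced by the lowest one well above background on that array if higher. This changed 0 values in the set, so the folds given for them are the measured ones and not bounds. The scripts were tested on simulated data.

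Sequences given with values are the 12 largest differences, the 6 highest levels, the 6 smallest spreads, the 2 smallest p per direction at 0.5 µg/L, those called and those next to the threshold, and examples of each are printed. The members and lists were chosen with earlier results of these data known. Alternatives were other scalings, background corrections, filters, blocks, units and left-out pools.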

Additional observations from a re-analysis of the deposited data

How the results depend on the processing

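The 190 sequences became 27 with normexp background correction, 47 with median centring, 2 with spike-in scaling, 11 with the deposited log2 values, 126 with probes well above background on all 9 arrays, 294 with a size threshold of 0.25 and 16 with one of 1. Leaving out 1 pool at a time gave 214 to 529, since the rule then asks for fewer pools. It gave 529, 300 and 328 without 50 µg/L pools 1, 2 and 3, and 327 without control pool 1. The median difference of the set between 0.5 µg/L and control, 0.08, was -0.052 with spike-in scaling and -0.0026 with normexp, and positive under the other alternatives.

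The limma calls between 50 and 0.5 µg/L, 56 of 5191 sequences of which 8 were in the set, became 0 and 0 with normexp or without the filter on dim probes, 141 and 1 with median centring, and 322 and 0 with spike-in scaling. They were 36 and 7 with probes well above background on all 9 arrays, 34 and 2 with slides as random blocks, 22 and 0 with the 2 groups alone, and 93 of 9280 with probes as the unit. In the set, 4 were called with quantile normalization, 2 with flagged spots kept in and 0 with the deposited values. Calls over all sequences are not given for these settings, so a change of the set cannot be told from one of the whole array. Leaving out 1 pool gave 0 to 46 calls, 0 to 3 of them in the set. There were 0 calls without 0.5 µg/L pool 1, 50 µg/L pool 1 or 50 µg/L pool 3, 9 without 0.5 µg/L pool 3, and 31 and 21 without control pools 2 and 3. The replicate block, by pool number, which is also the slide, gave 14 calls and 0 in the set. The deviations of same-numbered pools correlated at -0.16 to 0.13, so the numbers are not taken as pairs. Against control, calls at 50 µg/L were 0 (693 at an unadjusted p under 0.05), 1 with spike-in scaling, and 0 to 1 with 1 pool left out. At 0.5 µg/L they were 0 (293 at an unadjusted p under 0.05), and 0 to 2 with 1 pool left out, 0 of them in the set. The block changed no other call. The cause of these changes was not tested. For 34 sequences of the set followed one by one, 562 of 567 differences between 50 µg/L and the other pools were negative. The other 5 belong to spike-in scaling. With 1 pool left out, the sign was fixed by the rule, which put every 50 µg/L pool below every other pool. The sequences were chosen as lower at 50 µg/L, so this count is a description and carries no test. It covers the sign of the differences and not their size. The number of arrays, and signal close to background at 50 µg/L, limit the precision.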

Other observations

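The 190 sequences have 81 further probes, on 55 of them, that were too dim to enter any comparison. Their log2 difference between 50 µg/L and the other 6 pools had a median of -0.31, and 56 of the 81 (69.1%) were lower at 50 µg/L. Among all 2075 such probes of tested sequences the median was 0.07, and 44.6% were lower. The pools did not overlap for 10 of the 81 (12.3%), beside 2.22% of the 2075. These probes were read from the same pools that chose the set, and no test was made.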
